A study of Homo sapiens with 2 samples.

Results

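Matrix metalloproteinases (MMPs) and tissue inhibitors of metalloproteinases (TIMPs) were compared between RT-R-MDA-MB-231 cells and the parental line MDA-MB-231. The set held 10 genes of 24462 gene symbols, chosen by name: the secreted enzymes MMP1, MMP2, MMP3, MMP9 and MMP10, the membrane-type enzymes MMP14 and MMP15, and the inhibitors TIMP1, TIMP2 and TIMP3. The genes were chosen with their values in these libraries already known, so their differences are a description. MDA-MB-231 is a long-used human line of triple negative breast cancer. The RT-R line was derived from it by repeated X-ray doses of 2 Gy until 50 Gy had been given, and is resistant to radiotherapy. Both lines were cultured in RPMI 1640 with serum and antibiotics. Each was represented by 1 library of 3' tags from total RNA, and whether the resistant line is a pool or a clone is not given in the sources used here.

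MMPs are zinc-dependent proteases that cut collagens, proteoglycans and other matrix proteins, and many also release growth factors and shed receptors. They are made as inactive proenzymes whose propeptide must be removed. Secreted members diffuse or bind to the matrix, whereas membrane-type members stay anchored at the cell surface, where MMP14 can activate pro-MMP2. TIMPs bind the active site of MMPs in a tight complex, and the balance of enzymes and TIMPs is a textbook measure of how much matrix a cell can degrade. In breast tumours much of the MMP supply is known to come from stromal cells as well as from the carcinoma cells.

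The RT-R library held 10014804 counts and the parental library 9255008, and the 10 genes took 0.127% of the RT-R counts and 0.124% of the parental counts. With 1 library per line there is no replicate check and no p-value. Each ratio, after scaling of the libraries, carries a 95% interval for counting error only, and PCR copies of a molecule may be counted as separate reads. In bulk RNA, fewer expressing cells and less RNA per cell cannot be told apart. The labelled line was checked against its markers: ESR1, the estrogen receptor, had 1 RT-R and 0 parental counts, PGR, the progesterone receptor, had 0 in both, and VIM, the mesenchymal filament vimentin, had 8454 RT-R and 4310 parental counts. ERBB2, which encodes HER2, had 174 RT-R and 230 parental counts.

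Promoter sequences are shown for the members with an entry in the RefSeq table (build GRCh38.p14), 5 of 10, because the stromelysin gene MMP10 of the chromosome 11 cluster and the members outside that cluster differ in them. MMP1, MMP2, MMP3, MMP9 and TIMP2 have no sequence shown. Each line gives the 120 bases before the annotated transcript start, 5′ to 3′ on the gene's strand. Capitals mark matches, on either strand, to the AP-1 motif TGANTCA, the TATA motif TATAAA or the GC box GGGCGG.
MMP10 (chr11:102780629-102780748, minus strand): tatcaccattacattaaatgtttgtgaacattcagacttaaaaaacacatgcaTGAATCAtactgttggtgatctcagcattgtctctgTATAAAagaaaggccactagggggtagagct
MMP14 (chr14:22836465-22836584, plus strand): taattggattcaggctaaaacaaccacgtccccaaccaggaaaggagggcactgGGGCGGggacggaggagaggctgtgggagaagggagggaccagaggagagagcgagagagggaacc
MMP15 (chr16:58025634-58025753, plus strand): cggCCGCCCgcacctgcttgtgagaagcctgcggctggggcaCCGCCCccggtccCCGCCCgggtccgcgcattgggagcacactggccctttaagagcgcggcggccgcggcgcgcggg
TIMP1 (chrX:47582316-47582435, plus strand): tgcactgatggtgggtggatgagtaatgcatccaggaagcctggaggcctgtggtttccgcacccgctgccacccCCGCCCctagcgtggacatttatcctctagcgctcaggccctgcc
TIMP3 (chr22:32801585-32801704, plus strand): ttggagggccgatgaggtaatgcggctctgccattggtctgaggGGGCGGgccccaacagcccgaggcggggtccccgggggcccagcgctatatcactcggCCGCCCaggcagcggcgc

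In the 250 bases upstream of the start, MMP10 held 1 AP-1 match, 1 TATA match and 0 GC boxes, and 34.4% of its bases were G or C. The other 4 had 0 AP-1 and 0 TATA matches, between 1 (MMP14) and 5 (MMP15 and TIMP3) GC boxes, and a GC content from 56.8% (MMP14) to 74.8% (MMP15). The median GC content of 27305 promoters was 58.0%. Of these promoters, 6.6% held the AP-1 letters, 11.1% the TATA letters and 42.3% the GC box in the same window. No match overlapped another in the 5 promoters. Across 15 MMP and TIMP promoters in the table, the AP-1 letters occurred in 3, those of MMP7, MMP10 and MMP20 in the chromosome 11 cluster, but not in MMP8 or MMP27 of the same cluster. The TATA letters occurred in 6, those of MMP7, MMP8, MMP10 and MMP20 and, outside the cluster, MMP21 and MMP26. A match is a run of letters and not a bound site.

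MMP1, the interstitial collagenase that cleaves fibrillar collagen, had 2064 counts in the RT-R library against 8 in the parental library. Its level in CPM, that is counts for every 1000000 of the scaled library, was 203 (194 to 212) in RT-R cells and 0.878 (0.379 to 1.73) in parental cells. The ratio was 231-fold (117 to 537). MMP1 overlaps the pseudogene WTAPP1 in the reference gene table, and WTAPP1 had 8 RT-R counts and 0 parental counts. MMP1 thus stood far above the parental level with few counts in the gene that overlaps it.

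The stromelysins MMP3 and MMP10, which cut proteoglycans, laminin and fibronectin and can activate other pro-MMPs, stayed near the detection limit. MMP3 had 19 RT-R and 3 parental counts, a ratio of 5.68 (1.67 to 29.96), and missed the minimum of 20 counts by 1. MMP10 had 7 RT-R and 0 parental counts. With the parental level put at 3 counts, the limit used here for a listed 0, MMP10 was 2.09-fold higher. This value leaves out the counting error of its 7 RT-R counts. Both enzymes lay on the RT-R side of equality, at levels of 1.87 (1.13 to 2.92) and 0.689 (0.277 to 1.42) CPM in the RT-R library.

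The gelatinases, which cut denatured collagen and basement membrane collagen IV, differed from each other. MMP9 had 48 RT-R counts against 9 parental counts, a ratio of 4.78 (2.32 to 11.1). It was called higher, but at 4.72 (3.48 to 6.26) CPM in RT-R cells and 0.987 (0.451 to 1.87) in parental cells it remained a low transcript. MMP2 had 1 RT-R count and 0 parental counts, so no ratio is given and a difference was not detectable at this depth.

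**Figure D1:**
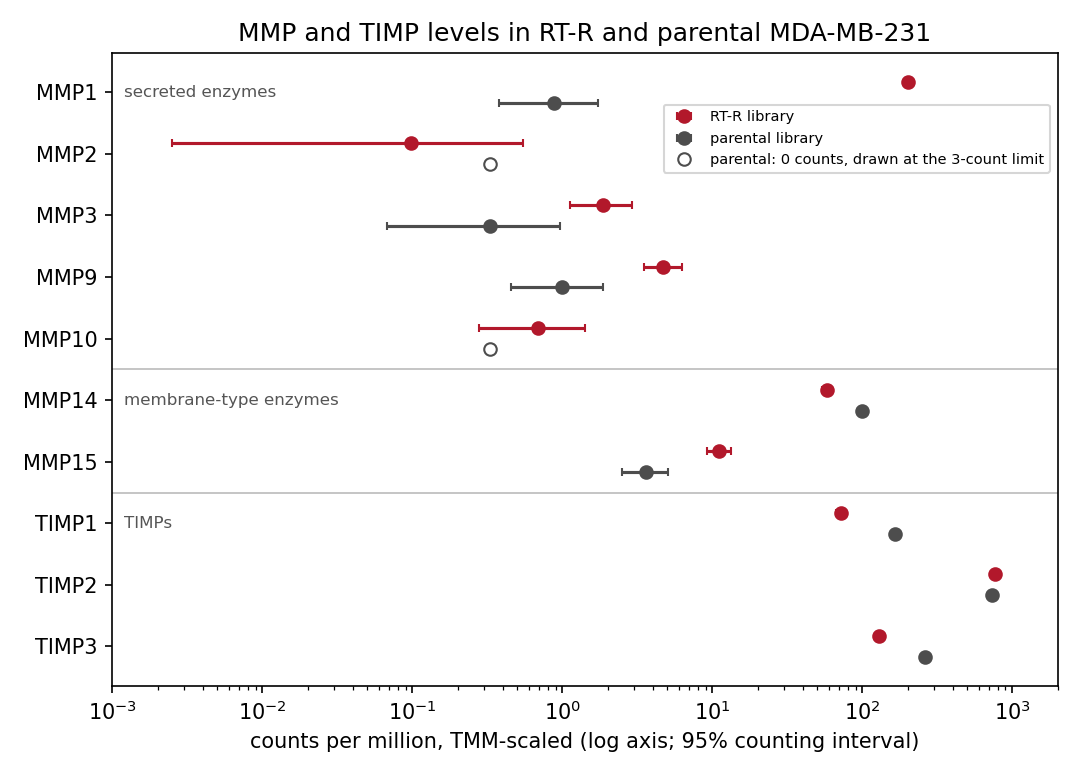
Levels of the 10 genes in the RT-R library (red) and the parental library (grey), in CPM on a log axis with 95% counting intervals; open circles mark 0 counts, drawn at the limit of 3 counts. MMP1 lies at 203 in RT-R and 0.878 in parental cells, whereas TIMP2 lies at 772 in RT-R and 729 in parental cells.

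The membrane-type enzymes moved in opposite directions. MMP14 (MT1-MMP), a pericellular collagenase and activator of pro-MMP2, had 593 RT-R and 907 parental counts and was 1.71-fold lower (1.54 to 1.895), short of the 2-fold limit. MMP15 (MT2-MMP), its close relative, had 113 RT-R and 33 parental counts and was 3.07-fold higher (2.07 to 4.67). MMP14 nonetheless remained the more abundant, with 58.3 (53.7 to 63.2) CPM against 11.1 (9.16 to 13.4) for MMP15 in the RT-R library. In the parental library the levels were 99.5 (93.1 to 106) for MMP14 and 3.62 (2.49 to 5.08) for MMP15. A 3' tag is read once per transcript end, so these levels between genes need no division by length.

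Among the inhibitors, TIMP1 and TIMP3 were lower and TIMP2 was nearly level. TIMP1, a soluble inhibitor that also binds pro-MMP9, had 733 RT-R and 1512 parental counts and was 2.301-fold lower (2.105 to 2.52). TIMP3, which binds to the extracellular matrix and also inhibits ADAM17, had 1319 RT-R and 2393 parental counts and was 2.02-fold lower (1.89 to 2.17), just inside the 2-fold limit, and this call depended on the scaling. TIMP2, which takes part in the activation of pro-MMP2 by MMP14, had 7845 RT-R and 6643 parental counts, a ratio of 1.06 (1.025 to 1.09). TIMP1 and TIMP3 lie inside introns of synapsin genes. SYN1, which overlaps TIMP1, had 13 RT-R and 37 parental counts and was called lower, and SYN3, which overlaps TIMP3, had 1 and 0, so few counts were listed under the overlapping genes.

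Of the 10 genes, 7 reached the minimum of 20 counts in a library, and this minimum is met more easily by a gene that is high in one of the libraries. A gene was called when it also differed by 2-fold or more and its interval left out equality. Called higher were 3 (MMP1, MMP9 and MMP15), beside 6.95% of the 12644 genes that reached that minimum. Called lower were 2 (TIMP1 and TIMP3), beside 4.0% of all measured genes. With scaling by total counts or by the upper quartile TIMP3 was not called, at log2 ratios of -0.97 and -0.98. Since the genes were chosen on this contrast, nothing is read from these shares. The median log2 ratio of the 7 was 0.08, beside -0.01 over all measured genes, and their median absolute log2 ratio was 1.20, beside 0.34. The same choice of genes and the count minimum enter these medians, so nothing is read from them either.

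**Figure D2:**
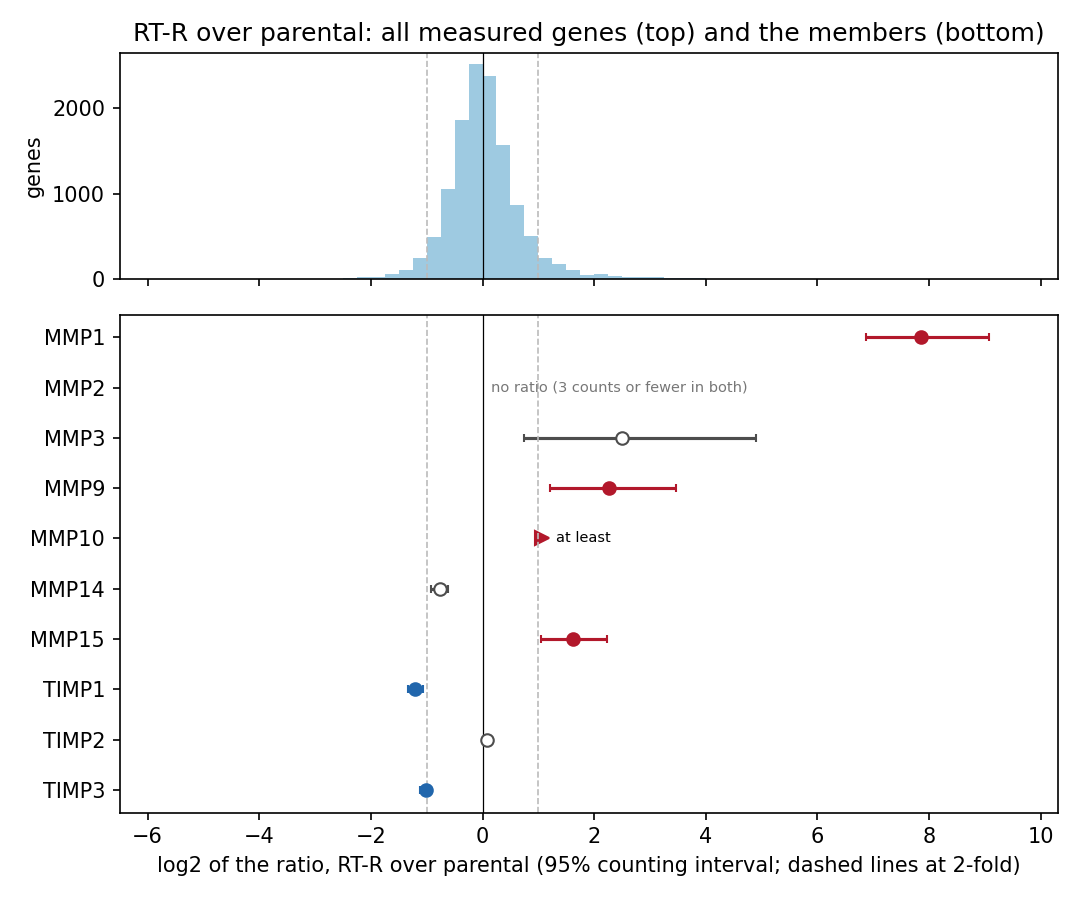
Top, number of measured genes by log2 ratio of RT-R over parental, with the tails gathered in the outermost bars. Bottom, the ratio of each member with its 95% counting interval, filled where called higher (red) or lower (blue). A triangle marks the MMP10 ratio with the parental 0 put at 3 counts, without a counting interval. MMP1 lies at a ratio of 231, MMP9 at 4.78 and MMP15 at 3.07, and TIMP1 and TIMP3 lie just past the 2-fold line on the lower side.

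The order of the levels differed between the libraries. In the RT-R library TIMP2 was highest at 772 CPM, followed by MMP1 at 203, TIMP3 at 130 (122.8 to 136.9), TIMP1 at 72.1 and MMP14 at 58.3. MMP15, MMP9, MMP3, MMP10 and MMP2 followed. In the parental library the order was TIMP2 at 729, TIMP3 at 262.5, TIMP1 at 166, MMP14 at 99.5 and MMP15 at 3.62, with the other 5 below 1 CPM. In RT-R cells the counting intervals of MMP3 and MMP10, and of MMP10 and MMP2, overlapped. In parental cells those of neighbours from MMP9 downwards overlapped. MMP1 stood above TIMP3 and TIMP1 in RT-R cells and below all of the TIMPs in parental cells.

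Secreted enzymes were compared next with membrane-type enzymes and TIMPs. Secreted enzymes gave 2139 of the 2845 enzyme counts in RT-R cells, 75.2% (exact binomial interval 73.6 to 76.8), against 20 of 960, 2.08% (1.28 to 3.20), in parental cells. MMP1 alone gave 72.5% (70.9 to 74.2) of the enzyme counts in RT-R cells and 0.833% (0.360 to 1.64) in parental cells, where MMP14 gave 94.5% (92.8 to 95.8). Without MMP1, the secreted share was 9.60% (7.63 to 11.9) in RT-R cells and 1.26% (0.653 to 2.19) in parental cells. Among these 7 enzymes, most counts came from MMP1 in RT-R cells and from MMP14 in parental cells. Over all MMP symbols, the pseudogene MMP23A aside, MMP1 gave 53.9% (52.3 to 55.5) in RT-R cells and 0.338% (0.146 to 0.665) in parental cells. On that base MMP14 gave 15.5% (14.4 to 16.7) in RT-R cells and 38.3% (36.4 to 40.3) in parental cells. MMP24, a membrane-anchored enzyme outside the set, gave 21.7% (20.4 to 23.1) in RT-R cells and 53.3% (51.3 to 55.3) in parental cells, with an overlap described with the rest of the family. The secreted share over all MMP symbols was 58.8% (57.2 to 60.3) in RT-R cells and 5.92% (5.0 to 6.95) in parental cells.

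Summed over each class, secreted enzymes were 95.9-fold higher (61.9 to 157) in RT-R cells. MMP1 gave 2064 of the 2139 secreted counts in RT-R cells and 8 of 20 in parental cells, so this sum mainly reflects MMP1. Membrane-type enzymes were 1.485-fold lower (1.345 to 1.64), with 706 counts in RT-R cells and 940 in parental cells. MMP14 gave 593 and 907 of these counts, while MMP15 alone was 3.07-fold higher. The 3 TIMPs together were 1.19-fold lower (1.16 to 1.22), with 9897 RT-R and 10548 parental counts. Since TIMP2 was nearly level, its share of the TIMP counts was 79.3% (78.5 to 80.1) in RT-R cells and 63.0% (62.1 to 63.9) in parental cells. TIMP1 gave 7.41% (6.90 to 7.94) of the TIMP counts in RT-R cells and 14.3% (13.7 to 15.02) in parental cells, and TIMP3 gave 13.3% (12.7 to 14.01) and 22.7% (21.9 to 23.5).

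**Figure D3:**
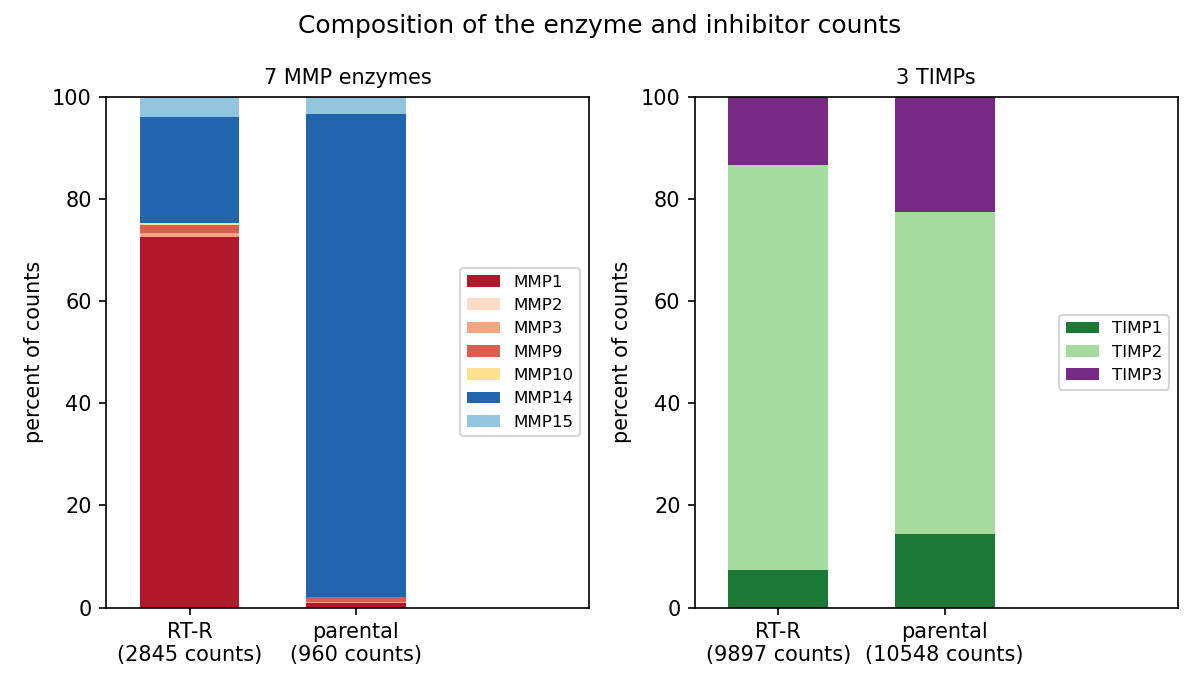
Percent of the counts of the 7 enzymes (left) and of the 3 TIMPs (right) from each gene, in the RT-R and the parental library. MMP1 fills 72.5% of the RT-R enzyme bar and 0.833% of the parental bar, and TIMP2 fills 79.3% of the RT-R and 63.0% of the parental TIMP bar.

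For every 100 TIMP counts there were 28.7 enzyme counts in RT-R cells and 9.10 in parental cells, a ratio of 3.16 (2.92 to 3.42). Over all MMP and TIMP symbols, MMP24 included, the numbers were 38.5 in RT-R cells and 22.4 in parental cells, a ratio of 1.72 (1.62 to 1.82). Without MMP1 the numbers were 7.89 in RT-R cells and 9.03 in parental cells, a ratio of 0.874 (0.791 to 0.966), so the direction among the 10 genes depended on MMP1. For the known partners MMP14 and TIMP2, there were 7.56 MMP14 counts per 100 TIMP2 counts in RT-R cells against 13.65 in parental cells, 1.81-fold lower (1.62 to 2.02). For MMP9 and its partner TIMP1, the numbers were 6.55 in RT-R cells and 0.595 in parental cells, with an interval of the ratio from 5.30 to 25.6. These are ratios of transcripts and not of active protein.

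The positions of the members were then examined, since MMP1, MMP3 and MMP10 lie in a row of MMP genes on chromosome 11. In that row MMP7, MMP8, MMP12 and MMP27 had 0 counts in both libraries, MMP20, the enamel protease, had 3 RT-R and 0 parental counts, and MMP13, collagenase 3, had 4 and 3. The genes on either side, TMEM123 and DCUN1D5, were 1.22-fold lower (1.13 to 1.32) and 1.196-fold lower (1.09 to 1.31). The 30 measured neighbours of MMP1 had a median log2 ratio of -0.06, with 3 called higher and 1 lower, beside 6.95% and 4.0% of all measured genes. MMP1 was the only gene of the row with more than 19 counts in either library.

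TIMP1 lies on the X chromosome, where the median gene was 1.72-fold lower in RT-R cells. There 128 of 424 measured genes were called lower and 20 higher, beside 4.0% and 6.95% of all measured genes. The 30 measured neighbours of TIMP1 had a median log2 ratio of -0.89, with 11 called lower and 1 higher, against -1.20 for TIMP1 itself. Relative to these neighbours TIMP1 had a log2 ratio of -0.31 and was not called. TIMP3 on chromosome 22 differed from its neighbours, whose median log2 ratio was 0.20 with 1 of 30 called lower, and relative to them it stood at -1.21. The part of the chromosome-wide shift in the TIMP1 value was not tested. MMP9, MMP14, MMP15 and TIMP2 had neighbours with medians between -0.22 (MMP14) and 0.25 (TIMP2).

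**Figure D4:**
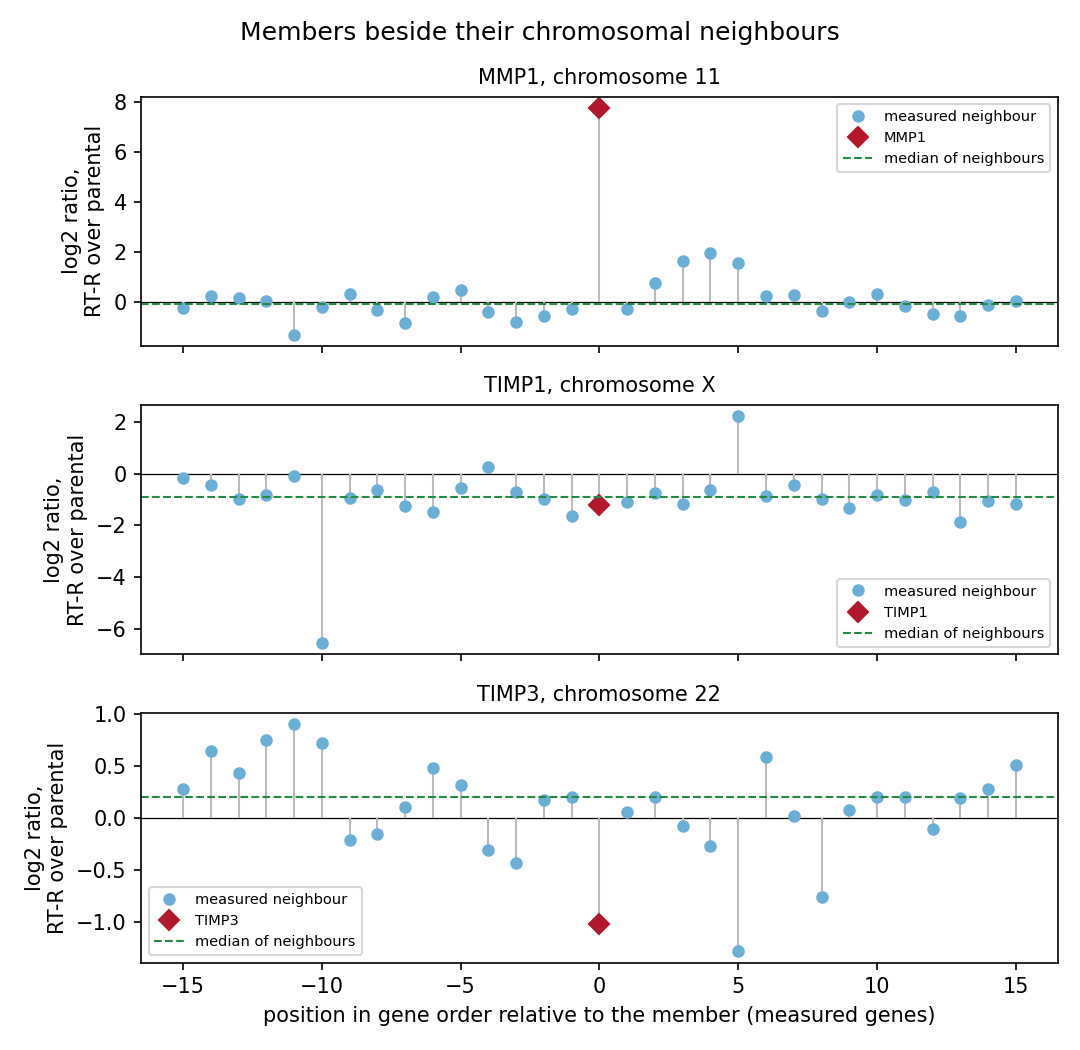
Log2 ratio of RT-R over parental for MMP1, TIMP1 and TIMP3 (red diamonds) and for the 15 measured genes on each side in gene order (blue), with the median of the neighbours as a dashed line. MMP1 and TIMP3 stand apart from neighbours with medians of -0.06 and 0.20, whereas TIMP1, at -1.20, lies near a median of -0.89.

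Of 12 other secreted or released MMPs, 5 had any count and 2 reached 20 counts, MMP11 (stromelysin-3, 33 RT-R and 37 parental counts) and MMP19 (71 and 76), with 0 called. Of 4 other membrane-anchored MMPs, 2 reached 20 counts and 0 were called. These were MMP16, with 35 RT-R and 22 parental counts, and MMP24, with 832 and 1261, which was 1.69-fold lower (1.55 to 1.85). With these counts MMP24 exceeded MMP14 in both libraries and was the most abundant MMP symbol in the parental library. MMP24 is uncertain, because its antisense gene MMP24-AS1 overlaps it, with 1581 RT-R and 2214 parental counts, and the use of strand in counting is not given in the sources used here. Among 7 other MMP inhibitors, 3 reached 20 counts and 2 were called higher. Over all measured genes, 6.95% were called higher and 4.0% lower. TIMP4 had 45 RT-R and 8 parental counts, 5.04-fold higher (2.35 to 12.4), and RECK, a membrane-anchored inhibitor of MMP9 and MMP14, had 45 and 19, 2.12-fold higher (1.22 to 3.85). TFPI2, a secreted protease inhibitor, had 348 and 310 counts, a ratio of 1.01 (0.861 to 1.18).

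Genes that act with the MMPs were compared by lists chosen with earlier results of these data known. Of 12 measured activators and cell-surface partners, 0 were called, with a median log2 ratio of 0.08. FURIN, the convertase that cuts the propeptide of membrane-type MMPs, had a ratio of 1.12 (1.00 to 1.26), PLAU, the urokinase that generates plasmin, was 1.16-fold lower (1.09 to 1.23), and BSG (EMMPRIN), known as an inducer of MMPs, was 1.08-fold lower (0.993 to 1.17). These counts of called genes are to be read against the 6.95% higher and 4.0% lower among all measured genes.

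In the related ADAM and ADAMTS proteases, 0 of 11 measured genes were called higher and 2 lower, beside 6.95% and 4.0% of all measured genes. The median log2 ratio of the 11 was 0.07. ADAM28 had 12 RT-R and 45 parental counts, 4.18-fold lower (2.18 to 8.69), and ADAMTS15, a hyalectan-cutting protease, had 437 and 788, 2.01-fold lower (1.79 to 2.27). ADAM17, the sheddase that TIMP3 inhibits, had 532 and 263 counts, a ratio of 1.81 (1.56 to 2.11) that did not reach the limit.

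Among matrix proteins that MMPs cut, 5 of 14 measured genes were called higher and 0 lower, beside 6.95% and 4.0% of all measured genes. The median log2 ratio of the 14 was 0.66, beside -0.01 over all measured genes. COL4A1, a chain of the basement membrane collagen that gelatinases cut, had 354 RT-R and 104 parental counts, 3.05-fold higher (2.45 to 3.83). TNC, the matricellular glycoprotein tenascin C, had 383 and 82 counts, 4.19-fold higher (3.29 to 5.38). FN1 (3.67-fold) and COL6A2 (9.95-fold) were also called higher. The other collagen VI chains of the list were not called. COL6A1 had 634 RT-R and 561 parental counts, a ratio of 1.01 (0.903 to 1.14). COL6A3 had 61 and 70, 1.28-fold lower (0.895 to 1.835). The fibrillar collagens that MMP1 cuts were low: COL1A1 had 76 RT-R and 59 parental counts, COL1A2 had 2 and 0, and COL3A1 had 0 in both.

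Of 19 measured transcription factors known to act on MMP promoters, 2 were called higher and 1 lower, beside 6.95% and 4.0% of all measured genes. The median log2 ratio of the 19 was 0.22. ETS1, whose family binds sites near the AP-1 element of several MMP genes, had 2704 RT-R and 1019 parental counts, 2.38-fold higher (2.21 to 2.56). CEBPB, a bZIP factor of inflammatory genes, had 2032 and 895 counts, 2.04-fold higher (1.88 to 2.205). ETV1 was 2.205-fold lower (1.95 to 2.49), with 399 and 789 counts. The AP-1 subunits were not called: JUN had a ratio of 1.30 (1.23 to 1.38), FOSL1 1.22 (1.097 to 1.37) and FOS 1.17 (0.706 to 1.94), while FOSL2 was 1.60-fold lower (1.26 to 2.03).

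Markers of other cell types that make MMPs were read in the same libraries. Of 8 fibroblast markers, 3 were at 0 in RT-R cells and 5 in parental cells, with DCN, PDGFRA and COL3A1 at 0 in both. Their summed level was 15.25 CPM in RT-R cells and 12.4 in parental cells. Within this list THY1, a surface glycoprotein, had 47 RT-R and 2 parental counts, 21.1-fold higher (5.52 to 179), and PDGFRB, a growth factor receptor, had 28 and 52, 2.07-fold lower (1.28 to 3.41); both were called. Of 5 leukocyte markers, PTPRC and CD3E were at 0 in both libraries, and the summed level was 48.6 CPM in RT-R cells and 39.5 in parental cells, most of it CD68 with 452 and 346 counts. CD14, a monocyte surface receptor, had 39 RT-R and 14 parental counts and was called higher, 2.498-fold (1.33 to 4.98). The part of THY1, of CD14 or of the other markers above 0, in the MMP values was not tested.

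The genes nearest to MMP1 in log2 ratio, over these 2 libraries alone and among 10597 other genes with at least 100 counts over both, were PLCB4, ALPK2 and MAGEB2. With a pseudocount of 0.5, their log2 ratios lay within 0.14, 0.25 and 0.57 of the MMP1 value of 7.77. For PLCB4 and ALPK2, which had no parental count, that distance is set by the pseudocount. With the parental 0 put at 3 counts they were 31.1-fold and 40.95-fold higher, without the counting error of the RT-R counts. PLCB4, a phospholipase C gene, had 104 RT-R and 0 parental counts, ALPK2, a kinase gene, 137 and 0, and MAGEB2, a cancer-testis gene, 405 and 2. All 3 had fewer RT-R counts than MMP1.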

How the data were processed

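Per the labels' protocols, each line gave 1 library, made from total RNA with the LEXOGEN Quant-Seq kit, which reads 3' ends. The authors deposited raw counts per gene symbol. Bowtie2, bedtools, bcl2fastq 2.20.0.422 and the hg19 build are named in the submitters' processing notes; annotation, strand use and filters are not stated there. Rows of the same symbol were summed (25737 rows, 24462 symbols); each member had 1 row. Library scaling used TMM in edgeR 4.0.16 (R 4.3.3), which served for nothing else; the RT-R library was 1.12 times the parental one in effective size. Log2 ratios used a pseudocount of 0.5. Ratios carry exact conditional and shares exact Clopper-Pearson 95% intervals (scipy 1.17.1); both cover counting error only. A call needed 20 counts in a library, a 2-fold ratio and an interval on one side of 1. Counts of 0 were put at 3 counts, 0.295 CPM in RT-R and 0.329 CPM in parental cells. Ratios against such a 0 leave out the counting error of the other library. Genes named are the members, called genes of 12 lists, and examples chosen after their values were seen. A called gene of the matrix list is not reported here. Members and lists were chosen with earlier results of these data known. Gene order came from RefSeq GRCh38.p14 by symbol, placing 98.6% of measured genes. Calculations were tested on simulated data. Alternatives were other scalings (DESeq2 1.42.0 for the median of ratios), pseudocounts, minimums, fold limits and neighbour subtraction.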

Additional observations from a re-analysis of the deposited data

How the results depend on the processing

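The 3 genes called higher were also called with every scaling tried and after subtraction of the median of 15 neighbours on each side. The pseudocount does not enter the calls, and a 1.5-fold limit cannot remove a called gene. These settings therefore could not have removed any of the 3. Without a count minimum 5 genes were called higher, MMP3 and MMP10 being added, beside 7.47% of all genes. A minimum of 100 left MMP1 and MMP15 (beside 3.81%), and a 4-fold limit left MMP1 and MMP9 (beside 2.39%). Called lower was 1 gene, TIMP1, with scaling by total counts (beside 3.57%) or by the upper quartile (beside 3.59%), where TIMP3 had log2 ratios of -0.97 and -0.98. After neighbour subtraction 1 gene, TIMP3, was called lower (beside 2.89%), and TIMP2 had a log2 ratio of -0.16 in place of 0.08. At 4-fold, 0 were called lower (beside 0.554%). At 1.5-fold MMP14 was called lower as well (beside 11.9%). The secreted share of enzyme counts was 9.60% in RT-R and 1.26% in parental cells without MMP1, and 58.8% in RT-R and 5.92% in parental cells over all MMP symbols. Without MMP24, an alternative chosen after seeing the data, it was 75.1% in RT-R and 12.7% in parental cells. The enzyme to TIMP ratio was 0.874 without MMP1, 2.92 without TIMP1 and 1.72 over all symbols. Beyond what each alternative changes by construction, the cause was not tested. No paired analysis was possible because each line had 1 library. Depth limits MMP2, MMP3 and MMP10, which had under 20 counts.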

Other observations

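Beside the MMP cluster on chromosome 11, 3 neighbouring genes of inflammatory caspase signalling were called higher in RT-R cells. They were chosen after their values were seen, and are the 3 called higher among the 30 measured neighbours of MMP1. Of those neighbours 1 was called lower, and over all measured genes 6.95% were called higher and 4.0% lower. Nothing is read from this count. CASP4 had 332 RT-R and 95 parental counts, CASP1 had 75 and 17, and CARD16 had 54 and 16, with log2 ratios of 1.64, 1.95 and 1.57. CASP1 and CASP4 encode inflammatory caspases and CARD16 a CARD-only protein related to CASP1, so reads may be shared among these close copies. The proprotein convertases PCSK5 and PCSK6 had 11 and 12 RT-R counts and 0 parental counts each, and stayed below 20 counts. Against the 3-count limit they were 3.29-fold and 3.59-fold higher, without the counting error of the RT-R counts. The convertases with more counts did not share this direction or size. PCSK7 had 101 RT-R and 142 parental counts, 1.57-fold lower (1.21 to 2.04) and not called. FURIN, at a ratio of 1.12, was not called either.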
